A study of Homo sapiens with 4 samples.

Results

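SETD2, 8 further histone lysine methyltransferase genes and BOD1L1 were followed in NK-92 cells carrying a hairpin against ADAR1. The 10 genes were picked by name (SETD2, NSD1, NSD2, NSD3, ASH1L, KMT2A, KMT2C, KMT2D, SETD1A and BOD1L1) from the 20323 genes listed, and all 10 were among the 11810 that passed the filter on low counts. They were picked with results of these libraries in view, so their differences between the groups are given as a description, without a test. NK-92 is a human natural killer cell line grown in IL-2, and the cells had been transduced with lentivirus carrying a scrambled hairpin (shscramble, here NK scramble) or a hairpin against ADAR1 (shADAR1, here NK shADAR1), the enzyme that turns adenosine into inosine in double-stranded RNA. Poly(A) RNA was sequenced in 2 libraries of each group, described by the submitters as independent biological replicates. The libraries held 39529705 and 39960491 estimated counts for NK scramble, and 37881704 and 38552577 for NK shADAR1. The 2 NK shADAR1 libraries are titled shADAR1-1 and shADAR1-2, which are also names of hairpins in the study, so the titles alone do not tell repeats of 1 hairpin from 1 library each of 2 hairpins, but the study's text names shADAR1-2 cells as those sequenced.

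ADAR, the targeted gene, was at 655 and 682 CPM (counts scaled to library size, with TMM) in NK scramble and at 575 and 482 CPM in NK shADAR1 replicates 1 and 2. Both knockdown libraries were below both controls, the lower being replicate 2, and the log2 fold change of -0.34 did not pass the edgeR test across all genes (adjusted p = 0.9997). The cell line label was checked on marker genes. All 8 NK cell markers were detected, and 7 of them were above 10 FPKM (fragments scaled for transcript length and library depth) in every library. The most abundant was NKG7, a cytotoxic granule protein, at 1742 to 2081 FPKM, and the lowest value was 7.45 FPKM, for CD7. The 4 T cell markers were each under 1 FPKM in every library, with CD8A and CD8B at 0 and a summed level of 0.429 and 0.449 FPKM in the controls and 0.958 and 0.697 FPKM after knockdown, mostly CD3D. The 3 B cell markers summed to at most 2.38 FPKM, mostly CD79A with MS4A1 at 0, the 3 myeloid markers to at most 0.658 FPKM, mostly CSF1R, and the 2 erythroid markers to at most 0.052 FPKM with HBB at 0. The summed NK marker level was 2951 and 3317 FPKM in the controls, 3353 and 3037 FPKM after knockdown. In a bulk library, fewer cells expressing a gene and less RNA per cell cannot be told apart.

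Histone lysine methyltransferases write methyl marks that are read by other chromatin proteins. SETD2 travels with elongating RNA polymerase II and is the enzyme known for trimethylation of H3K36 in gene bodies. NSD1, NSD2, NSD3 and ASH1L place mono- and dimethyl marks on H3K36, whereas KMT2A, KMT2C, KMT2D and SETD1A are the catalytic subunits of COMPASS-type complexes that methylate H3K4 at promoters and enhancers. BOD1L1 is a partner of SETD1A known for protecting stalled replication forks.

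The genes are large. In GENCODE release 29 on GRCh38, SETD2 occupies bases 47016429 to 47163967 of chromosome 3 on the minus strand, a span of 147539 bases with 21 exons in its longest coding transcript. KMT2C, also on the minus strand, spans 301084 bases of chromosome 7 with 59 exons, and ASH1L spans 227540 bases of chromosome 1 with 28 exons. The shortest loci were SETD1A, 27371 bases on chromosome 16, and KMT2D, 40800 bases on chromosome 12 with 54 exons. The length that the deposited values themselves imply (counts against FPKM) averaged from 4074 bases for NSD3 to 9024 bases for ASH1L, and 75.9% to 98.0% of the tested genes were shorter. SETD2 came to 5469 bases, longer than 88.5% of tested genes. These implied lengths were 37.8% (NSD3) to 88.3% (SETD1A) of the longest annotated coding transcript. The word long thus holds for all 10 by implied length, and the annotated transcripts were not ranked against those of other genes. KMT2A and KMT2D had fractional counts, so some of their reads were divided among features, KMT2A overlaps AP001267.5 on the same strand, and NSD3 overlaps DDHD2 on the opposite strand. Their values carry that uncertainty, since whether strand was used in counting is not given in the sources used here.

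The start of the gene was read for the genes on which the values below turn. RefSeq promoter windows (GRCh38.p14, 250 bases before to 50 after the start) matched 9 of the 10 genes in 13 windows. The start is that of RefSeq and need not match the GENCODE span. For SETD2, KMT2D and BOD1L1 the stretches printed below lie beyond that span, which ends at bases 47163967, 49059774 and 13627723. The 120 bases before the start are shown for SETD2 and for KMT2C, ASH1L and BOD1L1, the other genes higher in both knockdown libraries, and for KMT2D, whose groups overlapped. Each is written 5′ to 3′ on the gene's strand, with every SP1 box (GGGCGG on either strand) in capitals.
SETD2 (chr3:47164114-47164233, minus strand): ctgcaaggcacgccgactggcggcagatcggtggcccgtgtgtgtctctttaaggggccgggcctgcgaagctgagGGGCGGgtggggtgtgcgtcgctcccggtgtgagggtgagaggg
KMT2C (chr7:152436004-152436123, minus strand): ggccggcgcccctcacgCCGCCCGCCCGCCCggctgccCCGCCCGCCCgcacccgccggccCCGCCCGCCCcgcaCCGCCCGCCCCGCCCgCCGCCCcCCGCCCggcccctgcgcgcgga
ASH1L (chr1:155562804-155562923, minus strand): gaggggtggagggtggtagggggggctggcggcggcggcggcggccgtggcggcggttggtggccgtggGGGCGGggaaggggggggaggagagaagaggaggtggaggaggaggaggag
BOD1L1 (chr4:13627726-13627845, minus strand): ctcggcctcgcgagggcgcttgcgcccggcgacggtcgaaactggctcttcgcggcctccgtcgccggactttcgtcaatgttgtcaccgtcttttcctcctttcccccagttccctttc
KMT2D (chr12:49060795-49060914, minus strand): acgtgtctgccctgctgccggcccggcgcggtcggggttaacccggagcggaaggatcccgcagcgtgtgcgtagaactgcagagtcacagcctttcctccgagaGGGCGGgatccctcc

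SETD2, ASH1L and KMT2D each held a single SP1 box in the printed stretch, KMT2C held 12 that partly overlap, and BOD1L1 held none. Over the whole windows the SP1 box was found in 8 of the 9 genes, all but BOD1L1. Counted by window it was in 12 of 13, beside 45% of the 35116 windows of all genes. CCAAT (34.6% of all windows) was present in NSD1 and NSD2 only, in 3 of the 13 windows, and TATAAA (11.5%) in none of the 9. The letters GAAANNGAA, the core of the interferon-stimulated response element, were in the BOD1L1 window alone (8.11% of all windows). CCGGAAG, an ETS motif (10.3%), was also in BOD1L1 alone. All motifs were read on both strands, and a match describes the letters only. Most windows were richer in G and C than the typical window, an exception being 1 window of NSD1 with 52.3% GC and 7 CpG dinucleotides. SETD2 had 70.3% GC and 28 CpG dinucleotides, KMT2C 88.7% and 56, and BOD1L1 64.3% and 34, against medians of 58.7% and 14 over all windows.

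The question was how these genes compared between NK shADAR1 and NK scramble cells, and the 2 knockdown libraries differed. In replicate 1, 5 of the 10 genes (SETD2, ASH1L, KMT2A, KMT2C and BOD1L1) were at least 1.5-fold above the NK scramble mean, or 50.0%, a fold reached by 9.51% of all tested genes in that library. In replicate 2 only BOD1L1 was, 1 of 10, against 4.41% of all tested genes. The other 5 genes lay within 1.5-fold of the NK scramble mean in both libraries. SETD2, KMT2C, ASH1L and BOD1L1 were higher in both knockdown libraries than in both controls, as were 13.3% of all tested genes, and none of the 10 was lower in both, against 12.6%. On the deposited FPKM only KMT2C and BOD1L1 were higher in both, and SETD2 and ASH1L were not. No gene of the 11810 (0.00%) passed the edgeR test, which asked for an adjusted p under 0.05 together with a 1.5-fold change. At an unadjusted p under 0.05, 293 genes passed in edgeR, 213 of them with that fold change (1.80%, of which 1.26% of all tested genes higher and 0.542% lower), and DESeq2 also called 0 genes after adjustment and 196 by the unadjusted rule.

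SETD2 was at 54.8 and 52.7 CPM in replicates 1 and 2 of NK scramble, and at 109 and 56.9 CPM in NK shADAR1 replicates 1 and 2. Replicate 1 of the knockdown stood apart from the other 3 libraries, and replicate 2 was just above the controls on this scale. On the FPKM scale SETD2 in replicate 2 (9.948) was instead just below both controls (9.996 and 10.031). The means were 53.8 ± 1.49 and 82.9 ± 36.8 CPM (SD, n = 2 each), a log2 fold change of 0.62. Against the NK scramble mean, log2 CPM was 1.02 higher in replicate 1 and 0.08 higher in replicate 2, while the controls differed by 0.06. Thus the SD of the knockdown group exceeded the difference between the means. In replicate 1, 2.79% of tested genes had a log2 ratio at or above that of SETD2, and in replicate 2 the figure was 37.3%.

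**Figure D1:**
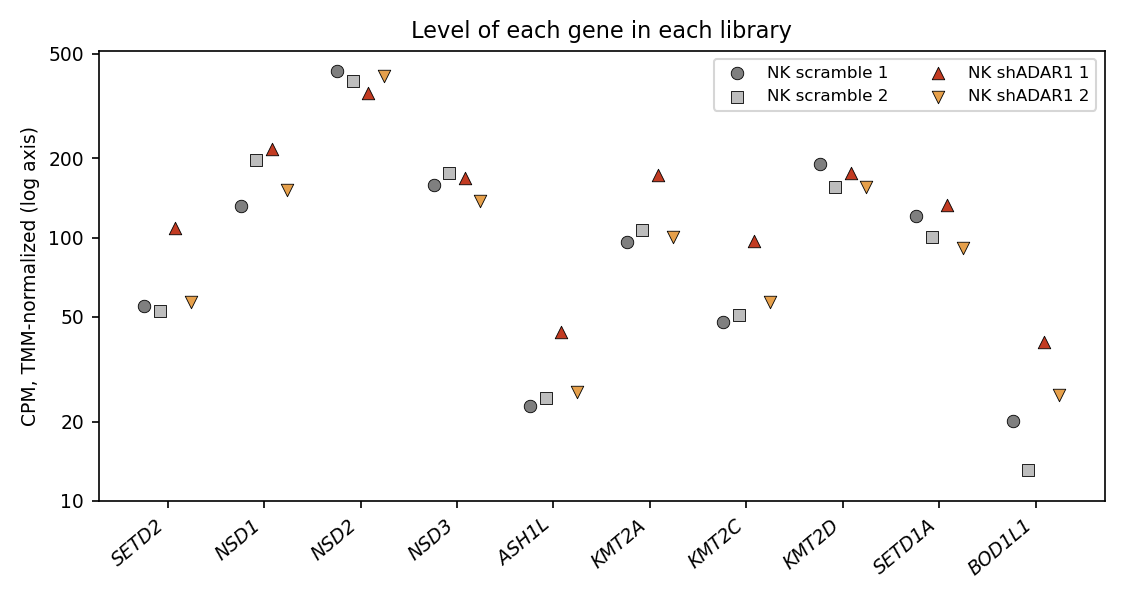
CPM of the 10 genes in each of the 4 libraries (log axis), with each library drawn as its own point. In 7 genes (all but NSD2, NSD3 and KMT2D) NK shADAR1 replicate 1 lies above the other 3 libraries, with SETD2 at 109 CPM against 52.7 to 56.9 CPM.

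ASH1L, a trithorax group protein that like SETD2 acts on H3K36, was at 23.04 and 24.51 CPM in the NK scramble libraries and at 43.9 and 25.9 CPM in NK shADAR1. As for SETD2, replicate 1 of the knockdown was far above both controls in CPM and replicate 2 slightly above them. In FPKM replicate 2 (2.71) instead lay between the controls (2.59 and 2.998). Its means were 23.8 ± 1.04 and 34.9 ± 12.7 CPM (SD, n = 2 each) and its log2 fold change was 0.55. NSD1 was at 132 and 197 CPM in the controls and at 217 and 152 CPM in the knockdown libraries. The control libraries differed from each other by 0.58 on the log2 scale, more than the log2 fold change of 0.16, and the groups overlapped.

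NSD2, the H3K36 dimethyltransferase linked to myeloma, was at 431 and 393 CPM in the NK scramble libraries and at 354 and 410 CPM in NK shADAR1. Replicate 1 was the lowest of the 4 libraries, and NSD2 was the only gene of the 10 with replicate 1 below replicate 2, and the log2 fold change was -0.11. NSD3 was at 159 and 176 CPM in the controls and at 169 and 138 CPM in the knockdown libraries. Only replicate 2 left the range of the controls, on the low side, with a log2 fold change of -0.12 between the groups.

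Among the H3K4 enzymes, KMT2C, a writer of monomethyl marks at enhancers, was at 47.9 and 50.6 CPM in the NK scramble libraries and at 96.7 and 57.0 CPM in NK shADAR1. Both knockdown libraries were above both controls, and the means of 49.3 ± 1.95 and 76.8 ± 28.1 CPM (SD, n = 2 each) gave a log2 fold change of 0.64. Its paralogue KMT2D, which acts at the same class of sites, was at 191 and 156 CPM in the controls and at 175 and 156 CPM in the knockdown libraries. The KMT2D groups overlapped, and the difference of 0.29 between its controls on the log2 scale was larger than its log2 fold change of -0.07. KMT2C and KMT2D thus differed in replicate 1, at 0.97 and 0.02 above the NK scramble mean.

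KMT2A, the MLL1 enzyme of HOX gene control, was at 96.6 and 107 CPM in the NK scramble libraries and at 173 and 101 CPM in NK shADAR1. Replicate 1 was 0.77 above the NK scramble mean on the log2 scale, whereas replicate 2 lay between the controls, at -0.01. SETD1A, which places much of the trimethyl H3K4 at promoters, was at 121 and 100 CPM in the controls and at 134 and 91.4 CPM in the knockdown libraries. Its groups overlapped, the knockdown libraries lying on both sides of the controls, and the log2 fold change was 0.03. BOD1L1 was at 20.2 and 13.1 CPM in the NK scramble libraries and at 40.1 and 25.2 CPM in NK shADAR1. It was the gene of the 10 with the largest log2 fold change, 0.97, and the one at least 1.5-fold above the NK scramble mean in both knockdown libraries (1.30 and 0.63 on the log2 scale). Its controls differed by 0.62, the widest control gap of the 10, and the partners SETD1A and BOD1L1 differed in both knockdown libraries.

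**Figure D2:**
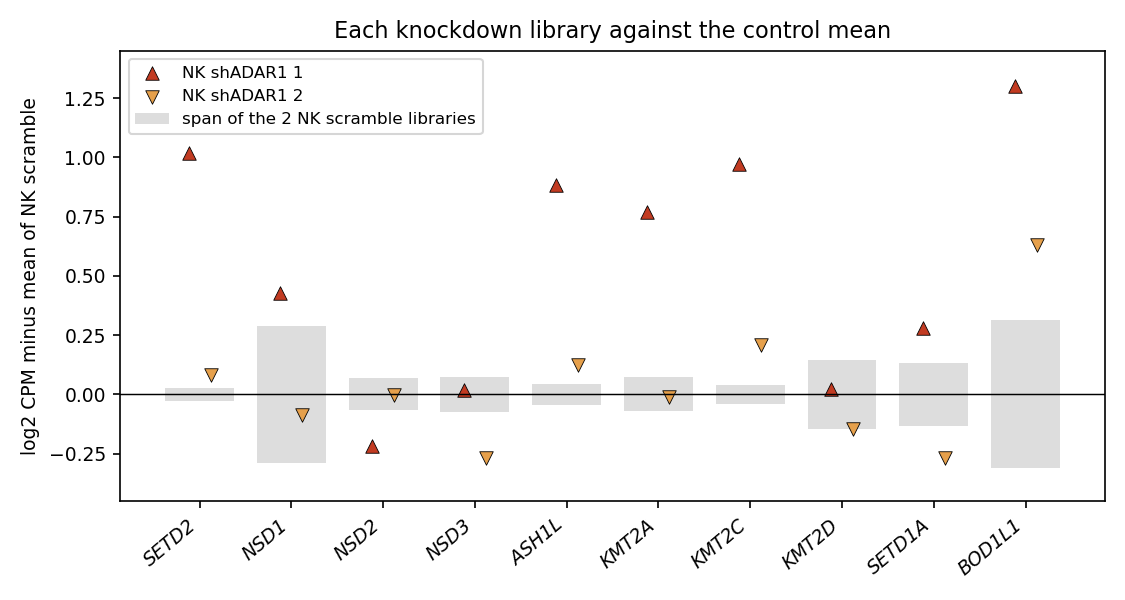
Log2 CPM of each NK shADAR1 library minus the mean of the NK scramble libraries for the 10 genes, with the bar giving the range of the controls about their mean. BOD1L1 lies at 1.30 and 0.63, SETD2 at 1.02 and 0.08, and NSD2 at -0.22 and 0.00.

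Over the 10 genes, replicate 1 was above replicate 2 in 9 (90.0%), against 50.6% of all tested genes. The median distance between the knockdown libraries was 0.61 on the log2 scale (0.26 over all tested genes), and that between the controls was 0.14 (0.26). The median log2 ratio to the NK scramble mean was 0.60 in replicate 1 and -0.01 in replicate 2, against 0.00 and 0.01 over all tested genes. The median fitted log2 fold change was 0.30 (0.00 over all tested genes). These medians do not hold for each gene, since BOD1L1, NSD1, KMT2D and SETD1A had control distances above 0.26, and NSD2 and KMT2D had knockdown distances below it. Leaving out NK shADAR1 replicate 1 took the log2 fold change of SETD2 from 0.62 to 0.08, that of KMT2C from 0.64 to 0.21, that of ASH1L from 0.55 to 0.12, that of BOD1L1 from 0.97 to 0.60 and the median of the 10 to -0.01, and leaving out replicate 2 gave 1.02 for SETD2 and 0.58 for the median.

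Levels between genes were compared per length. In NK scramble, NSD2 was the most abundant of the 10 at 64.5 ± 4.52 FPKM (SD, n = 2), followed by NSD3 at 40.3 ± 0.296 and KMT2D at 24.5 ± 2.08 FPKM. NSD1 (19.6 ± 4.58 FPKM) and SETD1A (19.1 ± 2.60 FPKM) came next, and their ranges overlapped. KMT2A followed at 14.7 ± 0.981, SETD2 at 10.01 ± 0.0247 and KMT2C at 5.60 ± 0.414 FPKM. ASH1L (2.80 ± 0.286 FPKM) and BOD1L1 (2.79 ± 0.771 FPKM) were the lowest, and their ranges overlapped too. SETD2 was near the middle of the tested genes, with 47.3% below it, while 87.9% were below NSD2 and 25.5% below BOD1L1. In NK shADAR1 the ranges of KMT2D and NSD1, SETD1A and KMT2A, KMT2A and SETD2, and SETD2 and KMT2C overlapped as well. SETD2 was there at 20.1 FPKM in replicate 1 and 9.95 FPKM in replicate 2, and KMT2C at 10.97 and 6.37 FPKM.

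The order of the levels and the ratio in replicate 1 ran against each other. The 5 genes under 15 FPKM in NK scramble (KMT2A, SETD2, KMT2C, ASH1L and BOD1L1) were the 5 at least 1.5-fold above the NK scramble mean, and the 5 above it, from SETD1A to NSD2, were not. Across the 10 genes, Pearson's r between log2 FPKM in NK scramble and the log2 ratio in replicate 1 was -0.91 and Spearman's rho was -0.94. Both measures share the NK scramble libraries, and the genes are not independent. The 10 were also picked with results of these libraries in view, so these coefficients are descriptions. Over the 2924 tested genes longer than 4 kb, r was -0.24, and over all 11810 it was -0.33. Genes over 4 kb and under 5 FPKM had a median log2 ratio of 0.24 in replicate 1 and 0.01 in replicate 2. Those between 5 and 15 FPKM, where SETD2, KMT2C and KMT2A lie, were at 0.10 and -0.01. Those between 15 and 40 FPKM were at 0.02 and -0.03, and those over 40 FPKM, where NSD2 and NSD3 lie, also at 0.02 and -0.03. At least 1.5-fold in replicate 1 were 23.2% of long genes under 5 FPKM and 9.21% of long genes between 5 and 15 FPKM. The share was 3.87% between 15 and 40 FPKM and 3.16% over 40 FPKM.

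**Figure D3:**
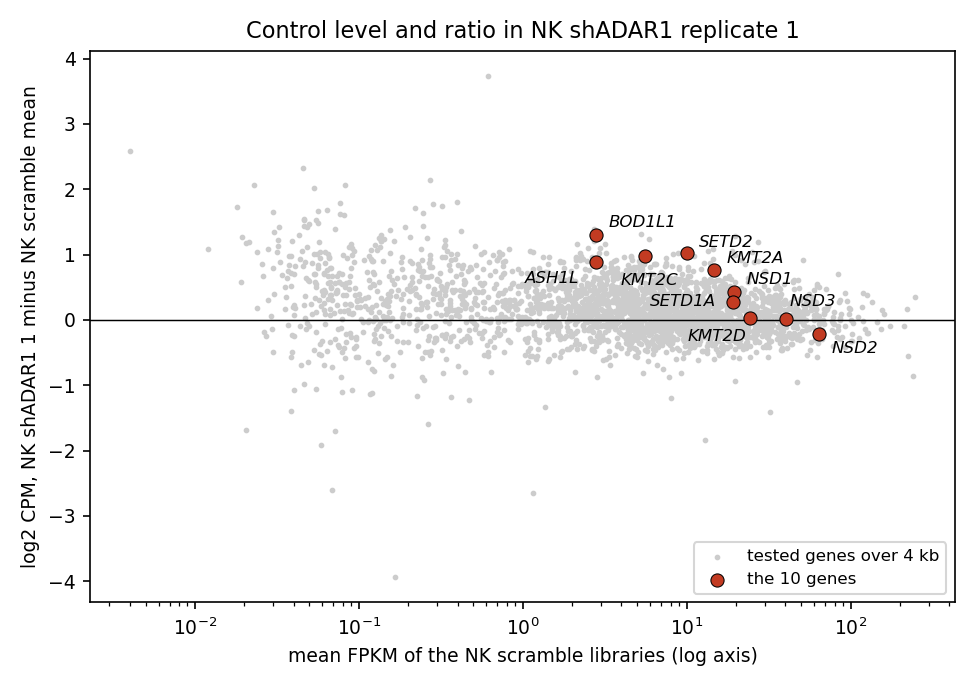
Mean FPKM in NK scramble (log axis) against the log2 CPM ratio of NK shADAR1 replicate 1 to the NK scramble mean, for the tested genes over 4 kb (grey) and the 10 genes (red). The 5 genes under 15 FPKM lie at 0.77 to 1.30 and the other 5 at -0.22 to 0.43.

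Across all tested genes, the log2 ratio in replicate 1 differed by transcript length. The median log2 ratio in replicate 1 was -0.08 for genes under 1 kb, -0.07 between 1 and 2 kb, 0.00 between 2 and 4 kb, 0.12 between 4 and 8 kb and 0.23 over 8 kb. In replicate 2 genes under 1 kb were at 0.17 and those over 8 kb at 0.00, so the order was not shared, and the NK scramble libraries themselves differed by -0.24 (replicate 1 minus 2) under 1 kb. Of the 372 genes over 8 kb, 23.4% were at least 1.5-fold above the NK scramble mean in replicate 1 and 3.76% in replicate 2. Genes over 4 kb took 19.8% and 19.5% of the counts in the controls, and 21.8% and 18.8% in the knockdown libraries, and the 10 genes 0.129%, 0.125%, 0.157% and 0.118%. Among genes over 4 kb, those with 40 to 45% GC, the range of SETD2 (43.2%), had a median of 0.22 in replicate 1, those with 50 to 55% GC -0.01, and those over 60% GC, where SETD1A lies, 0.22 again. The medians therefore did not run one way with GC content. The controls themselves differed (replicate 1 minus 2) by -0.20 at 40 to 45% GC, the range of SETD2, and by -0.23 at 45 to 50%. They differed by -0.02 at 50 to 55% and by 0.42 over 60%. The part of length and base composition in the values of the 10 genes was not tested beyond 1 alternative fit each. With length taken out, the log2 fold change of SETD2 was 0.53, that of NSD1 went from 0.16 to 0.03 and the median of the 10 genes from 0.30 to 0.17. With length and GC content taken out these values were 0.51, 0.08 and 0.21. In replicate 1, 100 of the 2924 genes over 4 kb (3.42%) had a log2 ratio at or above that of SETD2. Over all tested genes the share was 2.79% in replicate 1 and 37.3% in replicate 2. SETD2 was picked with results of these libraries in view, so its place is a description.

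**Figure D4:**
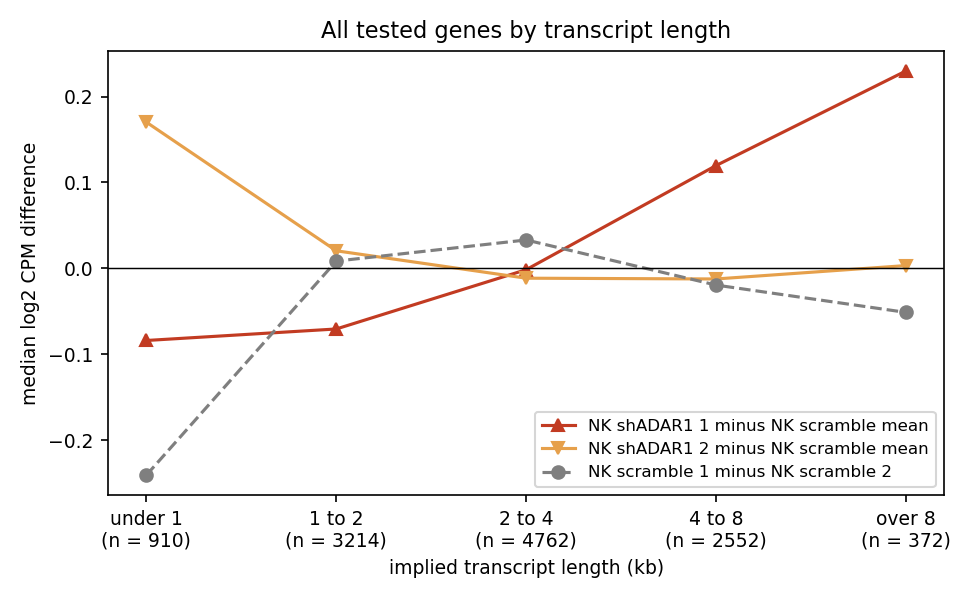
Median log2 CPM ratio to the NK scramble mean for all tested genes in bins of implied transcript length, drawn for each NK shADAR1 library, with NK scramble replicate 1 minus replicate 2 as a dashed line. NK shADAR1 replicate 1 runs from -0.08 under 1 kb to 0.23 over 8 kb, while replicate 2 is highest, at 0.17, under 1 kb, where the controls differed by -0.24.

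The genes closest to SETD2 over the 4 libraries, by the root mean square difference of centred log2 CPM among 8490 genes with a mean of at least 10 CPM, were HERC1 (0.05), ZBTB38 (0.05), BPTF (0.06), CD82 (0.07) and PRRC2C (0.07). HERC1, which encodes a giant ubiquitin ligase, was at 69.7 and 70.3 CPM in the NK scramble libraries and at 135 and 77.1 CPM in NK shADAR1. This likeness follows from how HERC1 was picked. Of the other 9 genes, KMT2C ranked 8, ASH1L 10 and KMT2A 32 in this order. NSD2 was the farthest, at rank 5919, and BOD1L1 ranked 797. The ranks come from the same 4 libraries whose results were known when these genes were picked, so they are descriptions.

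The wider machinery of histone methylation was read from 8 lists holding 114 other genes, of which 112 were tested. None passed the edgeR test after adjustment (adjusted p = 0.9997 for each gene named in this and the next paragraphs). By the unadjusted rule (p under 0.05 with a 1.5-fold change), 2 were higher and 1 was lower (2.68%, against 1.80% of all tested genes), and their median log2 fold change was 0.01. Of the 112, 14 were higher and 13 lower in both knockdown libraries than in both controls, beside 13.3% and 12.6% of all tested genes. In replicate 1, 4 of the 112 were at least 1.5-fold above the NK scramble mean, beside 9.51% of all tested genes. These lists were drawn up by function and not matched to the 10 long genes in transcript length. Implied lengths were for example 1217 bases for ING4 and 8032 bases for JMJD1C.

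Of the other H3K4 and H3K36 methyltransferases, 10 of 11 were tested and 0 passed in either direction, with a median log2 fold change of 0.04. KMT2E, a SET domain protein without known methyltransferase activity, was highest at 0.30, with 103 and 114 CPM in the NK scramble libraries and 159 and 108 CPM in NK shADAR1, replicate 1 again being the high library. SETD7, a lysine methyltransferase that also acts on non-histone proteins, was lowest at -0.34, with SMYD2 at 0.21 and SETD3 at -0.22 next to them. KMT2B and SETD1B, the paralogues of KMT2A and SETD1A, were at -0.07 and 0.05. The subunits of COMPASS-type complexes without a SET domain, 15 of 15 tested, had 0 past the unadjusted rule and a median of -0.07. PSIP1, which tethers the menin complex of KMT2A to chromatin, was highest at 0.19, before HCFC2 at 0.18, and BOD1, the paralogue of BOD1L1, lowest at -0.30, before WDR5, a core subunit, at -0.19. BOD1 was at 44.7 and 37.9 CPM in the NK scramble libraries and 35.5 and 31.5 CPM in NK shADAR1, both knockdown libraries being below both controls, whereas both were above them for BOD1L1.

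Writers of other marks showed 0 genes past the unadjusted rule. The H3K9 list (8 of 9 tested) had a median log2 fold change of 0.05, from SETDB1 at 0.18 and SETDB2 at 0.12 to SUV39H1 at -0.08 and EHMT1 at -0.14. The PRC2 list (11 of 11) had a median of 0.06, from EZH1, a catalytic subunit, at 0.17 and SUZ12, a core subunit, at 0.13 to the accessory subunits AEBP2 at -0.16 and PHF1 at -0.25. The H4K20 and H3K79 list (4 of 4) ran from KMT5B at 0.27 and KMT5C at 0.08 to KMT5A at -0.12 and DOT1L, the H3K79 methyltransferase, at -0.36, with DOT1L controls at 274 and 174 CPM.

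Among the demethylases, 20 of 20 were tested, with 1 higher and 1 lower by the unadjusted rule. JMJD1C, a JmjC domain protein, was at 24.0 and 12.8 CPM in the NK scramble libraries and 35.6 and 25.4 CPM in NK shADAR1, a log2 fold change of 0.73. Its controls differed widely, and both knockdown libraries were above them. KDM6B, which removes methyl groups from H3K27, was at 19.0 and 19.5 CPM in the controls and 10.5 and 14.2 CPM in the knockdown libraries, a log2 fold change of -0.64. KDM8 was at 0.43 and KDM4B at -0.27 on the same scale. Of the 24 readers of methylated H3K4 and H3K36, all tested, BPTF passed the unadjusted rule. BPTF, the H3K4 trimethyl reader of the NURF remodelling complex, was at 50.7 and 45.1 CPM in the NK scramble libraries and 98.7 and 54.0 CPM in NK shADAR1, which gave a log2 fold change of 0.67 and the pattern of SETD2. Next among the readers were ING4 at 0.32, and at the low end TAF3 and ING1, both at -0.23. The transcription elongation list, which holds the polymerase partners along with which SETD2 works, had 20 of 20 tested, 0 past the rule and a median of 0.00. LEO1, of the PAF complex, was highest at 0.57, with 39.3 and 30.2 CPM in the controls and 52.2 and 51.0 CPM in the knockdown libraries, and PAF1 was lowest at -0.18. CTR9, also of the PAF complex, was at 0.51, and CCNK, the cyclin K partner of elongation kinases, at -0.16.

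**Figure D5:**
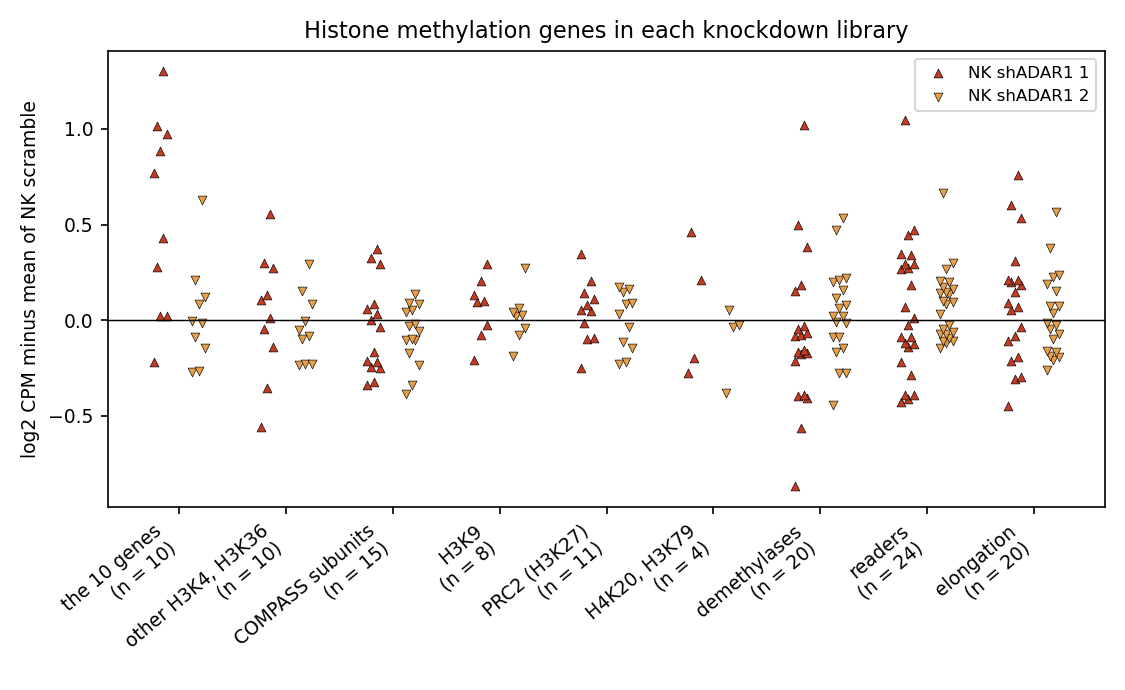
Log2 CPM of each NK shADAR1 library minus the NK scramble mean for every tested gene of the 10 genes and of the 8 other lists, 1 point a gene and library. In replicate 1 the 10 genes have a median of 0.60 and the 112 other genes of 0.00, and in replicate 2 both medians are -0.01. The lists were not matched to the 10 genes in transcript length.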

How the data were processed

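RNA-seq was analysed for 2 NK scramble and 2 NK shADAR1 libraries of NK-92 cells, grouped by the treatment labels. For each gene the authors deposited an estimated count without normalization and an FPKM value, which corrects for transcript length and depth. RefSeq promoter windows reach from 250 bases before to 50 after a start. Reads were filtered with fastp 0.18.0 per the submitters' processing notes. The aligner, counter, genome build and annotation are not given in the sources used here. Of 20323 Ensembl identifiers, 20301 matched a gene symbol, and 0 columns of values were unmapped.

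Estimated counts were rounded and, in R 4.3.3, low genes were removed by filterByExpr (minimum count 10, edgeR 4.0.16). The 11810 genes left were TMM-normalized and entered the quasi-likelihood test of edgeR with no covariate. Calls needed a Benjamini-Hochberg adjusted p under 0.05 together with a 1.5-fold change. Ratios used log2 CPM with a prior count of 2. Implied length is the count divided by FPKM and by the total count. GC content came from the longest coding transcript of GENCODE release 29 (98.3% of tested genes). The script steps were tested on simulated data. Alternatives were DESeq2 1.42.0 size factors and test, RLE and upper-quartile scaling, no filter, a mean count of 50, limma 3.58.1 on log2(FPKM + 0.1), length taken out by a spline of 4 degrees of freedom, a replicate block, and each library left out. A length and GC correction was chosen after seeing the data.

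The 10 genes and all gene lists were chosen with earlier results of these data known. Beside the 10 genes, ADAR, the cell type markers and genes that overlap the 10, the genes named are the 2 highest and 2 lowest of each list by log2 fold change, list genes past an unadjusted p of 0.05 with a 1.5-fold change, and the 5 genes nearest SETD2. KMT2B, SETD1B, CDC73, RTF1 and SKIC8 were named after their values were seen.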

Additional observations from a re-analysis of the deposited data

How the results depend on the processing

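With 2 libraries a group, 1 library decides most values. The log2 fold change of SETD2 was between 0.50 and 0.64 under the other scalings, filters and tools, and ranged from 0.083 to 1.02 with each library left out, the low end being without NK shADAR1 replicate 1. The median of the 10 genes ranged from -0.0085 to 0.58 with each library left out. Of the 10 genes, 4 were higher in both knockdown libraries, 2 (KMT2C and BOD1L1) in limma on FPKM, 3 with length and GC content taken out, and 4 to 7 with each library left out, where the count is over the knockdown libraries that remain. Of 117 values of the other 9 genes under alternatives, 105 kept their direction and stayed within 1 SD between replicates, a wide margin, 2 moved further and 10 reversed. With each library left out, BOD1L1 ranged from 0.60 to 1.32, NSD2 from -0.22 to -0.0038, NSD1 from -0.12 to 0.48, NSD3 from -0.27 to 0.016, KMT2A from -0.013 to 0.76, KMT2D from -0.21 to 0.082 and SETD1A from -0.27 to 0.27. SETD1A was also -0.068 with length taken out and -0.055 with length and GC content. The causes were not tested.

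No gene was called in the edgeR test, 213 by the unadjusted rule, and 1 to 47 with each library left out, the highest without NK scramble replicate 1. Of the other histone methylation genes, 0 were called, 3 by the unadjusted rule, and 0 to 1 with each library left out. That one was JMJD1C, at a log2 fold change of 1.25 in edgeR without NK scramble replicate 1, its higher control, against 0.73 with all libraries. That fit leaves 1 control, which is assumed to vary like the knockdown libraries. With a replicate block 13 genes were called and SETD2 was at 0.55. BOD1L1 was among these 13 and among the 47, which is no support, since it was picked with its values known. However, the labels do not say that a number marks a shared batch, and same-numbered libraries had deviations correlated at 0.31. The count of genes higher in both libraries has no value under the block. The scaling that moved the median gene most was limma on FPKM, by 0.0205 on the log2 scale.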

Other observations

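CTR9, like LEO1 a subunit of the PAF elongation complex, was at 46.5 and 40.4 CPM in the NK scramble libraries and 73.3 and 50.7 CPM in NK shADAR1, a log2 fold change of 0.51 (adjusted p = 0.9997 in edgeR). Both knockdown libraries were above both controls, as for LEO1. PAF1 itself was at 81.9 and 75.5 CPM in the controls and 68.9 and 70.3 CPM in the knockdown libraries, below both controls. Of all tested genes, 13.3% were likewise higher and 12.6% lower in both knockdown libraries. The subunits CDC73, RTF1 and SKIC8 had log2 fold changes of -0.08, 0.00 and 0.05.

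The share of counts from ribosomal protein genes was 6.84% and 8.64% in NK scramble replicates 1 and 2 and 6.80% and 9.13% in NK shADAR1 replicates 1 and 2, and that from genes under 1 kb was 12.3%, 14.97%, 12.6% and 15.6%. Both shares were higher in the libraries numbered 2 than in those numbered 1, in either group. Across genes, the log2 CPM of NK scramble replicate 2 correlated with NK shADAR1 replicate 2 at 0.989 and with NK scramble replicate 1 at 0.981.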
